A study of Homo sapiens with 12 samples.

Results

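The insulin-like growth factor (IGF) binding protein family was examined in the H3K27me3 ChIP-seq peak lists of human SH-SY5Y neuroblastoma cells, which are an established line derived from a neuroblastoma. All 7 genes of the family, IGFBP1 to IGFBP7, were taken by name from 20033 protein-coding genes, including the neighbouring pairs IGFBP1 with IGFBP3 and IGFBP2 with IGFBP5. Peaks were counted in each gene with 10 kb on each side. These windows held 15 of the 1338572 peaks of the 6 lists. ChIP-seq compared Tau expressing cells (WT, labelled wild type) with the Tau-KO lines 231K and 232P, made by CRISPR-Cas9 at MAPT, the gene of Tau, with 2 replicates of each. The single peaks in both lists labelled 232P carry the name of another Tau-KO line, 231P, so that every value given for 232P rests on its label. All groups share the SH-SY5Y background and the same antibody, C36B11, and each Tau-KO genotype is a single line, so that Tau-KO and line cannot be told apart within 231K or 232P. The number of peaks per list was 285826 and 222191 in WT, 271413 and 212347 in 231K, and 147118 and 199677 in 232P. The relative depth recovered from the lists was 100% and 66.6% in WT, 94.8% and 68.7% in 231K, and 68.1% and 56.9% in 232P, so replicate 1 was the deeper library of each line. The study set the loss of Tau beside the mark made by Polycomb Repressive Complex 2 and followed IGFBP3 as a target. With a test on read counts, it reported no significant difference between Tau-KO and WT in the H3K27me3 marks of IGFBP3.

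The IGFBPs are secreted proteins that bind IGF1 and IGF2, carry them in the circulation and at the cell surface, and hold them back from or bring them to the IGF1 receptor. IGFBP3 is the main carrier in serum, in a ternary complex with the acid-labile subunit, and is also known as a secreted factor of senescent cells. H3K27me3 is the trimethylation of histone H3 at lysine 27, a mark of genes kept silent by Polycomb, and it usually lies as a broad domain over the start of such a gene.

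The family was divided between IGFBP3, marked in every sample, IGFBP1, with peaks in differing places, and 5 genes without any peak. IGFBP3 had peaks in all 6 samples, IGFBP1 had peaks in 5 of 6, and IGFBP2, IGFBP4, IGFBP5, IGFBP6 and IGFBP7 had 0 peaks in the gene with 10 kb on each side in all 6 samples. Of all protein-coding genes, 22.1% had a peak in this window in all 6 samples and 65.1% had none in any. A count of 1 in all samples and 5 in none of 7 genes is close to these shares. A peak missing from a list means that it did not pass the threshold of the peak caller MACS at that depth. In regions of the lowest local background, 5 reads at the summit were enough to be listed in every sample, which is a fold enrichment of 2.38 to 2.98. The fold enrichment is the number of reads at the summit over the local background, each with 1 added.

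IGFBP3 is transcribed from the reverse strand of chromosome 7 (hg38, chr7:45912245-45921874), with 5 exons in its MANE Select transcript, the single transcript agreed on by the RefSeq and GENCODE annotations. That transcript starts at 45921272, while the record of the gene begins 602 bp further upstream at 45921874. Its H3K27me3 fell into a mark inside intron 1, in all 6 samples, and a small mark upstream of the MANE start, in both 232P samples. The 250 bases before the MANE start, between these marks, were under no peak in any list. Sequence from 3 places is shown, 5′ to 3′ on the reverse strand of hg38 with each CG dinucleotide in capitals, because CG-rich DNA is where Polycomb domains of vertebrates usually form. They are the RefSeq promoter upstream of the start (GRCh38.p14, chr7:45921273-45921522), the upstream mark of 232P outside the annotated untranslated region (chr7:45921875-45922014), and the centre of the longer stretch of intron 1 that was under a peak in all 6 samples (chr7:45920008-45920307).
IGFBP3 promoter, no peak in any list: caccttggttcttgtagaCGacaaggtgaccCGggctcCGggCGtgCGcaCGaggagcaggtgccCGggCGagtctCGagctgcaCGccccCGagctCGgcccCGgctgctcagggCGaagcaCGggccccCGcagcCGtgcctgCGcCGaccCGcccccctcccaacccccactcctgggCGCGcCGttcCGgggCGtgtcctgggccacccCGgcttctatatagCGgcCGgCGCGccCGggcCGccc
IGFBP3 upstream mark, both 232P samples: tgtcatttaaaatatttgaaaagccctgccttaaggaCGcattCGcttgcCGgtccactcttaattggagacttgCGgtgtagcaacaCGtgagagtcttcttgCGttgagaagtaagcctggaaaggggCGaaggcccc
IGFBP3 intron 1 mark, all 6 samples: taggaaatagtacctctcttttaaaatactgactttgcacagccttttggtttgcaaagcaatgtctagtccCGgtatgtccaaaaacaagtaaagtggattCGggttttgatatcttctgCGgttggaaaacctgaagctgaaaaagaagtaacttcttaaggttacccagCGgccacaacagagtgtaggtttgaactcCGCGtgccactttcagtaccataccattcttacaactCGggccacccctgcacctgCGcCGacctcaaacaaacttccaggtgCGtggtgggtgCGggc
The unmarked promoter had 32 CG in 250 bases, or 12.8 per 100 bases, with 76.0% G and C. The stretch of the upstream mark had 7 in 140 bases, or 5.0 per 100. The stretch of intron 1 had 11 in 300 bases, or 3.67 per 100, with 47.3% G and C. The whole intron 1 mark of 2635 bp had 1.82 CG per 100 bases. The peaks thus lay beside the DNA richest in CG between -2000 and 3999 bp from the start, and not on it. They lay downstream of it in all 6 samples, and upstream of it only in both 232P samples, as the plot of CG content around the start shows.

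**Figure D1:**
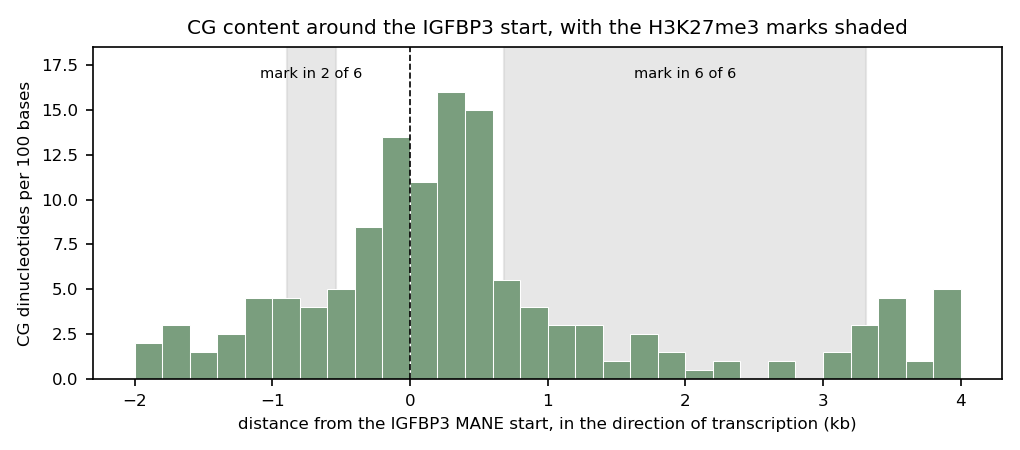
CG dinucleotides per 100 bases in bins of 200 bases (bars) against the distance from the IGFBP3 MANE start (dashed line), with the marks shaded and labelled with the number of samples that hold them. The bins from 200 bp before to 599 bp after the start reach 11.0 to 16.0 and lie outside the shaded marks, whereas most bins inside the intron 1 mark are at 4.0 or below.

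The intron 1 mark reached from 680 to 3314 bp downstream of the MANE start (chr7:45917958-45920592). In WT replicate 1 it was listed as 2 peaks, with fold enrichments of 5.68 and 4.57 and summits of 15 and 14 reads. WT replicate 2 had 1 peak of 2522 bp, with a fold enrichment of 4.58 and 13 reads at the summit. In 231K replicate 1 there were again 2 peaks, with lower fold enrichments of 3.78 and 3.29 and 12 reads at each summit. The 2 samples with a gap in the mark were the 2 deepest libraries. A single peak of 2560 bp was listed in 231K replicate 2, with a fold enrichment of 4.64 and 16 reads. In 232P replicate 1 the peak was shorter, 1509 bp, with a fold enrichment of 4.75 and 12 reads. In 232P replicate 2 it was 2510 bp long with a fold enrichment of 5.55 and 15 reads. The mark was thus found in every sample with summits of 12 to 16 reads over a local background of 1.74 to 2.95. Its parts under a peak in all 6 samples were 657 bp, from 787 to 1443 bp after the start, and 118 bp, from 1803 to 1920 bp after it.

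**Figure D2:**
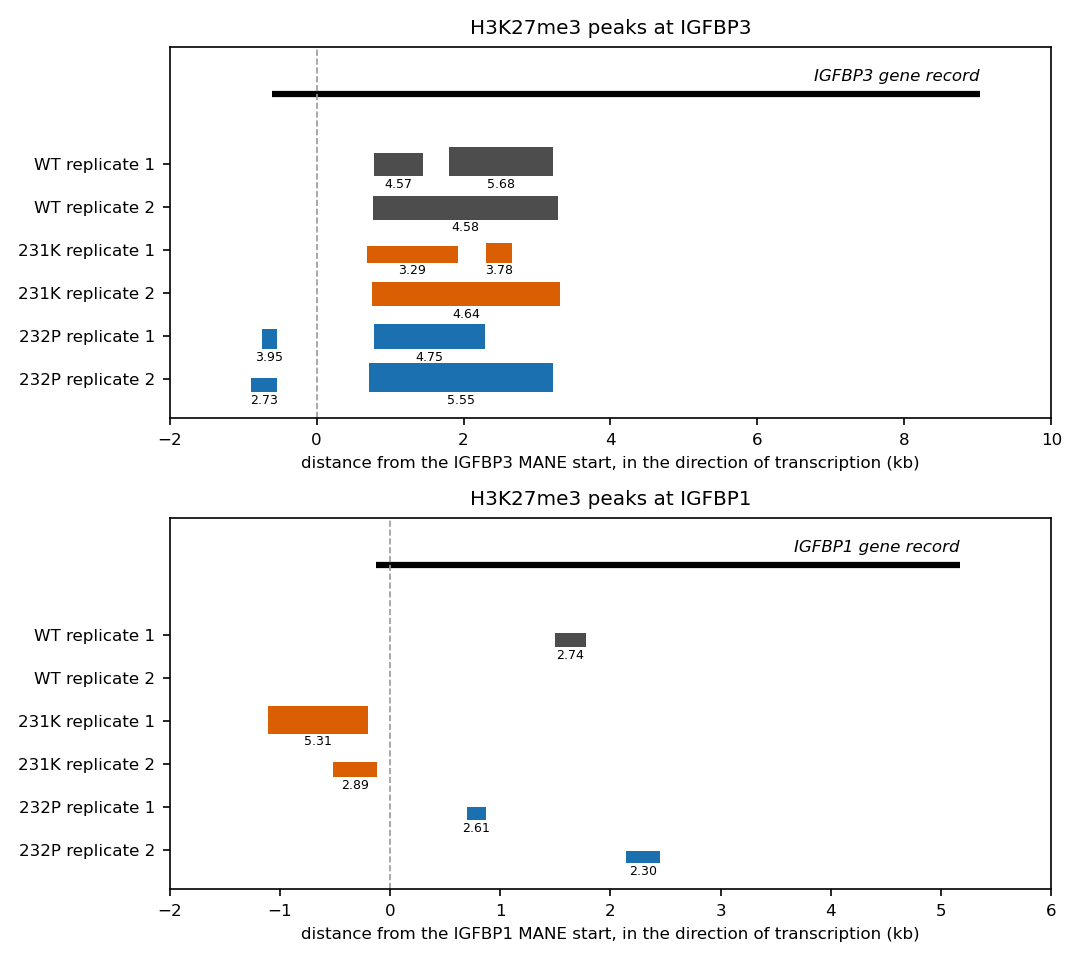
Peaks at IGFBP3 (top) and IGFBP1 (bottom) in the 6 samples, as boxes whose height and number give the fold enrichment, against the distance in kb from the MANE start (dashed line) in the direction of transcription. The black line is the gene record. All 6 samples have a box between 680 and 3314 bp after the start at IGFBP3, both 232P samples have another upstream of the start, and the boxes at IGFBP1 lie in different places except in both 231K samples.

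The covered length of IGFBP3, the number of bp under peaks in the gene with 10 kb on each side, was 2067 and 2522 bp in WT, 1599 and 2560 bp in 231K, and 1712 and 2869 bp in 232P. The lowest and the highest value were both from Tau-KO cells, and the groups overlapped. Tau-KO minus WT was -109.5 bp, with means of 2185 ± 626 bp (SD, n = 4) and 2294 ± 322 bp (SD, n = 2; two-sided exact permutation test, p = 0.867). This design of 4 against 2 cannot give a p under 0.0667. The difference was -215 bp for 231K and -4 bp for 232P (n = 2 against 2, exact permutation test, p = 1.0 for each, where the smallest possible is 0.333). The 232P values include the upstream mark. In the intron 1 mark alone, 232P had 1509 and 2510 bp, the other samples kept their values, and the difference to WT was -285 bp for 232P (p = 0.667, exact permutation test, n = 2 against 2) and -250 bp over all Tau-KO samples (p = 0.533, exact permutation test, n = 4 against 2), with groups that overlapped. In the whole lists, peaks were wider in replicate 2, with medians of 666 to 688 bp against 335 to 441 bp in replicate 1. The sign over all peaks of the IGFBP3 window depended on the replicate, since Tau-KO minus WT was -411.5 bp in replicate 1 and 192.5 bp in replicate 2. Size and sign also depended on the processing. This difference was -1027 bp with a -log10 q-value of 5 or more, and 195 bp with 50 kb on each side. Over all genes, the covered length was lower in all Tau-KO than in both WT samples for 7.97% and higher for 0.115% of 6985 genes with a peak in any sample. In 232P alone 43.0% were lower and 0.487% higher in both samples than in both WT samples, and in 231K alone 10.3% were lower. IGFBP3 was in none of these groups. The whole lists covered 213.6 and 282.6 Mb in WT, 196.6 and 290.2 Mb in 231K, and 70.3 and 211.7 Mb in 232P. The part of this total length in the shares was not tested.

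The highest fold enrichment at IGFBP3 was 5.68 and 4.58 in WT, 3.78 and 4.64 in 231K, and 4.75 and 5.55 in 232P. WT replicate 1 was highest and 231K replicate 1 lowest, with the other samples in between. The mean was 5.13 ± 0.780 (SD, n = 2) in WT and 4.68 ± 0.727 (SD, n = 4) in Tau-KO cells, a difference of -0.446 (exact permutation test, two-sided, p = 0.533). It was -1.415 in replicate 1 and 0.522 in replicate 2, 0.105 without WT replicate 1, and -0.0811 after thinning to the depth of the shallowest library. The difference to WT was -0.918 for 231K (p = 0.667) and 0.0247 for 232P (p = 1.0, exact permutation tests, n = 2 against 2). As a percentile of the -log10 q-value within its own list, the strongest IGFBP3 peak stood at 95.2 and 79.9 in WT, 71.3 and 84.7 in 231K, and 87.0 and 94.2 in 232P. It therefore ranked above most peaks of each list in all 6 samples. Tau-KO minus WT was -3.25 percentile points (exact permutation test, n = 4 against 2, p = 0.733). With 2 replicates a difference of the size of the spread between replicates could not be detected, and no test shows that the mark was alike in WT and Tau-KO cells.

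**Figure D3:**
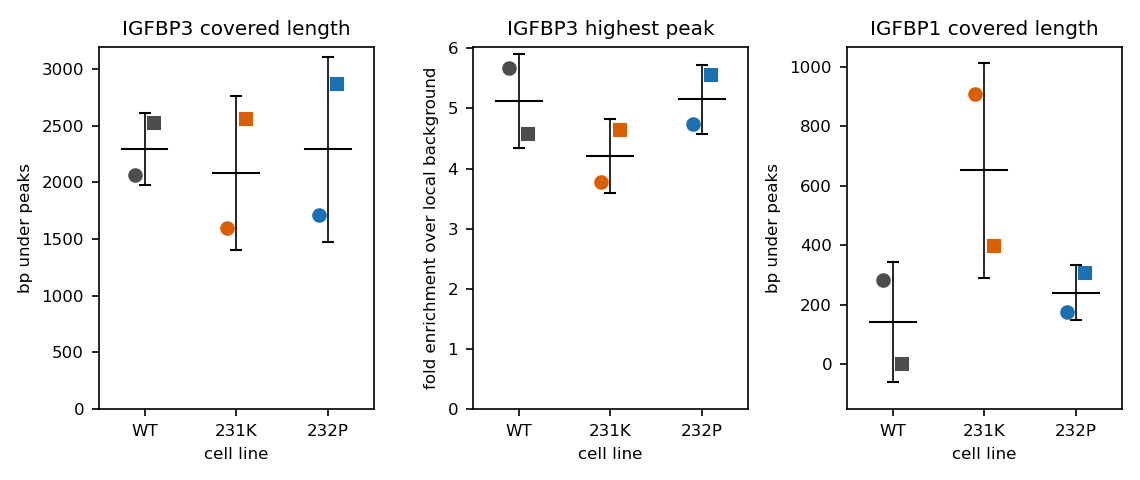
Covered length in bp and highest fold enrichment at IGFBP3, and covered length at IGFBP1, by cell line. Circles are replicate 1 and squares replicate 2, the horizontal line is the mean and the error bar the SD of 2 replicates. At IGFBP3 each Tau-KO line overlaps with WT in both measures. At IGFBP1 both 231K samples, at 907 and 397 bp, lie above the WT samples at 284 and 0 bp.

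The upstream mark of IGFBP3 (chr7:45921807-45922165) reached from -893 to -535 bp relative to the MANE start and covered the first base of the gene record. In 232P replicate 1 it was 203 bp long, with 8 reads at the summit, a fold enrichment of 3.95 and a q-value of 0.00305. In 232P replicate 2 it was 359 bp long, with 6 reads, a fold enrichment of 2.73 and a q-value of 0.0327. The second stood at the 9.07 percentile of its list, close to the listing threshold. No peak was listed there in WT or 231K. Whether IGFBP3 had gained a mark at its start in 232P depended on the start that was used. Within 1 kb of any annotated start, or of the MANE start, all 6 samples had a peak, as did 11.4% and 8.53% of all protein-coding genes, and nothing was lost or gained. With 1 kb on each side of the first base of the gene record alone, IGFBP3 was marked in neither WT sample and in both 232P samples. The share of all genes gained in 232P was not counted with this start. It was 0.0813% of 15997 genes with any start and 0.0968% of 16532 genes with the MANE start.

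IGFBP1, a binding protein made by liver and decidua and held down by insulin, lies on the forward strand of chromosome 7 (chr7:45888360-45893660), with its MANE start at 45888488. It and IGFBP3 are separated by 18584 bp, and their windows share 1416 bp, in which no peak lay. In WT replicate 1 there was a weak peak of 284 bp in intron 1, with a fold enrichment of 2.74, 8 reads and a q-value of 0.0232. WT replicate 2 had none. In both 231K samples a peak lay upstream of the MANE start instead. In 231K replicate 1 it was 907 bp long, with a fold enrichment of 5.31, 13 reads and a q-value of 1.63e-06, at the 90.7 percentile of its list. In 231K replicate 2 it was 397 bp long, with a fold enrichment of 2.89, 8 reads and a q-value of 0.0085, at the 22.3 percentile. The 2 replicates thus placed it at the same site with unequal strength. The stretch under a peak in both reached from -519 to -204 bp relative to the MANE start. Its part up to -251 bp, outside the 250 bases before the start, is shown because this was the only start of the family with a peak in both samples of a Tau-KO line and none in WT under the definition by any annotated start (chr7:45887969-45888237, forward strand of hg38, each CG in capitals).
IGFBP1 upstream mark, both 231K samples: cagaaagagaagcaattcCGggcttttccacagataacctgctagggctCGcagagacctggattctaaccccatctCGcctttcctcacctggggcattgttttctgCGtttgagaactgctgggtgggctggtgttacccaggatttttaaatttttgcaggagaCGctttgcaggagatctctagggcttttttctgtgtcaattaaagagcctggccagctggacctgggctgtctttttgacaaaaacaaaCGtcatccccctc
It had 6 CG in 269 bases, or 2.23 per 100, with 49.4% G and C. The 232P samples had peaks elsewhere in the gene, 175 bp in intron 1 in replicate 1 and 307 bp over exon 2 and intron 2 in replicate 2. Each had 5 reads at the summit, fold enrichments of 2.61 and 2.30 and q-values of 0.113 and 0.109, at the 0.566 and 0.433 percentile of their lists. The peak of 232P replicate 1 also came within 1 kb of the start, that of replicate 2 did not.

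The covered length at IGFBP1 was 284 and 0 bp in WT, 907 and 397 bp in 231K, and 175 and 307 bp in 232P. Both 231K samples were above both WT samples, whereas 232P overlapped with WT. The mean was 652 ± 361 bp in 231K and 142 ± 201 bp in WT (SD, n = 2 each), a difference of 510 bp with p = 0.333, the smallest that an exact permutation test of 2 against 2 can give. Without 231K replicate 1 this difference was 255 bp. Among 6985 genes with a peak in the window in any sample, 4.42% were higher in both 231K than in both WT samples. A peak at a start in both 231K samples and in neither WT sample was found for 0.206% of 15997 genes without such a peak in WT, and IGFBP1 was the member among them. With a -log10 q-value of 5 or more, the same number of top peaks from each list, or 2.5 kb on each side of the starts, 0 members were gained in 231K. In 232P this share was 0.0813%, with 0 members. With the MANE start alone the shares were 0.224% and 0.0968%, again with IGFBP1 in 231K and 0 members in 232P. The difference to WT was 99 bp in 232P (p = 0.667, exact permutation test, n = 2 against 2) and 304.5 bp over all Tau-KO samples (p = 0.333, exact permutation test, n = 4 against 2). The latter was 151 bp without 231K replicate 1. Chromosome 7 had a higher local background than the rest, with a median over its peaks of 1.33 to 1.47 times that of the whole list in every sample, including WT, and its part in the marks of IGFBP1 and IGFBP3 was not tested.

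The surroundings of the pair held few other peaks. The region from 100 kb before IGFBP1 to 100 kb upstream of the start of IGFBP3 was 233.5 kb long. In it, 4 and 1 peaks were listed in WT, 3 and 3 in 231K, and 3 and 3 in 232P. Outside the gene windows there was 1 weak peak in WT replicate 1, of 197 bp, and 1 in 231K replicate 2, of 392 bp. The pair therefore had short, separate peaks and no domain spanning both genes. Mean covered share over the 6 samples was 7.5% of the window for IGFBP3 and 1.36% for IGFBP1, above 82.6% and 76.1% of all protein-coding genes, most of which had none.

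IGFBP2 and IGFBP5 face each other on chromosome 2 (chr2:216632828-216664436, forward strand, and chr2:216672105-216695549, reverse strand), with 7668 bp between them. IGFBP2 is the binding protein of brain and cerebrospinal fluid, and IGFBP5 binds the extracellular matrix. The nearest peak to IGFBP2 lay 1.44 Mb away in both WT samples, 1.44 and 1.19 Mb in 231K, and 2.38 and 1.19 Mb in 232P. For IGFBP5 these distances were 1.41 Mb in both WT samples, 1.41 and 1.23 Mb in 231K, and 2.35 and 1.23 Mb in 232P. Between 215438627 and 218103929 on chromosome 2, 2.67 Mb with 12 protein-coding genes had no peak in any of the 6 lists. The other genes there include SMARCAL1, XRCC5 of DNA end joining, and TNS1, an adaptor of focal adhesions. Of all protein-coding genes, 4.28% were at least as far from a peak as IGFBP2 by the median over samples, and 4.48% as far as IGFBP5. The second pair thus stood among the genes most remote from H3K27me3 peaks, while the median gene was 111.5 kb from a peak.

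IGFBP7, which binds IGFs weakly and is a secreted tumour suppressor and senescence factor, lies on chromosome 4 (chr4:57030773-57110385, reverse strand). Its nearest peak was 373 kb away in both WT samples, 292 and 372 kb in 231K, and 546 and 373 kb in 232P. The peak-free stretch shared by all samples was 0.918 Mb with 5 protein-coding genes, including REST, the repressor of neuronal genes, and POLR2B, a subunit of RNA polymerase II. IGFBP4, an inhibitor of IGF action cleaved by PAPPA, lies on chromosome 17 (chr17:40443450-40457725, forward strand), with the nearest peak 111 kb away in both WT samples, 112 kb in both 231K samples, and 125 and 129 kb in 232P. Its shared peak-free stretch of 0.596 Mb held 16 protein-coding genes, among them the cell cycle genes CDC6 and TOP2A. IGFBP6, which prefers IGF2, lies on chromosome 12 (chr12:53097436-53102345, forward strand), with the nearest peak at 98.5 and 96.1 kb in WT, 96.7 and 95.6 kb in 231K, and 109.3 and 96.0 kb in 232P. Its stretch of 0.696 Mb held 26 protein-coding genes. IGFBP4 and IGFBP6 were as near to a peak as the median gene, since 50.0% and 52.5% of all genes were at least as far, against 26.2% for IGFBP7.

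**Figure D4:**
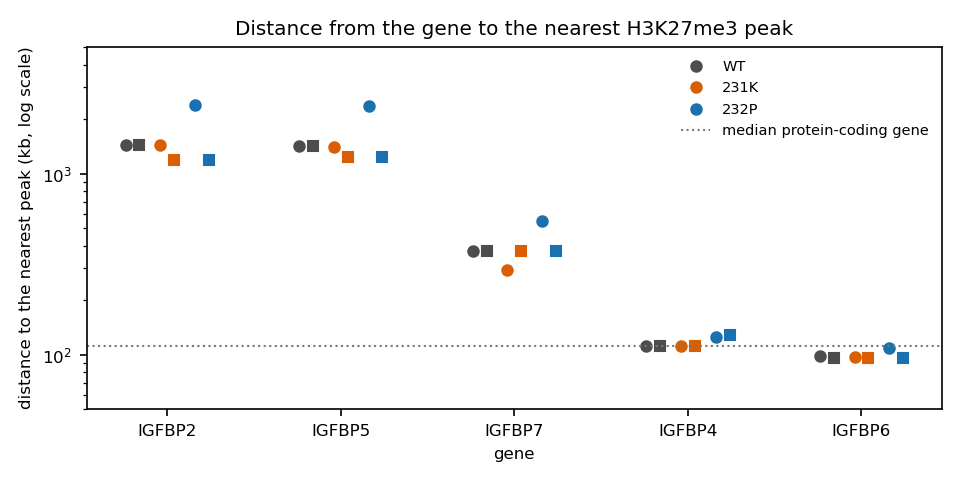
Distance in kb (log scale) from each of the 5 genes without a peak to the nearest H3K27me3 peak in the 6 samples, coloured by cell line, with circles for replicate 1 and squares for replicate 2. IGFBP2 and IGFBP5 lie above 1000 kb in all samples, IGFBP7 between 292 and 546 kb, and IGFBP4 and IGFBP6 near the dotted line of the median gene at 111.5 kb.

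The RefSeq table held promoters, from 250 bases before to 50 after the MANE start, for 5 of the 7 genes. It had no entry for IGFBP1 and IGFBP7. The number of CG in these 300 bases was 36 for IGFBP3, 30 for IGFBP4, 28 for IGFBP2, 12 for IGFBP6 and 9 for IGFBP5, with a median of 14 over 35114 promoters. IGFBP3 had more CG than 87.3% of all promoters, IGFBP4 than 77.6% and IGFBP2 than 73.8%. A CG-rich promoter was therefore found in the marked gene and in unmarked ones, and the unmarked genes IGFBP5 and IGFBP6 were below the median. The letters TATATA, searched on both strands, were in the IGFBP3 promoter and in 3.99% of all promoters. TATAAA was in the IGFBP4 promoter and in 11.5% of all.

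Among the genes of the IGF axis around the family, IRS4, STC1 and IGF1 had the highest mean share of the window under peaks, which is relative to a window that differs in length between genes. Of 17 genes for ligands, receptors, adaptors, the acid-labile subunit, proteases and their inhibitors, 8 had a peak in all 6 samples, 6 had none and 4 had a peak within 1 kb of a start in all 6 samples, where the shares of all protein-coding genes were 22.1%, 65.1% and 11.4%. Of the 8, only these 3 had a higher mean covered share than IGFBP3. A peak at a start in both WT samples was found for 4 of the 17 genes. Of these 4, 0 lost it in 231K and 0 in 232P. Over all genes, 2.52% of 3300 with such a peak lost it in 231K and 7.0% in 232P (3.57% and 8.48% with the MANE start alone). Median covered share was 0.613% over the 17 genes and 0.0% over all genes. Among the ligands, IGF1 had 36.0% and 39.1% of its window under peaks in WT, 31.8% and 47.3% in 231K, and 7.02% and 40.7% in 232P. IGF2 had 5.76% and 6.14% in WT, 5.4% and 6.06% in 231K, and 8.05% and 4.34% in 232P, none of it at the MANE start, and INS had none. The receptors IGF1R, IGF2R and INSR had peaks in all samples but at no start, with a mean of 0.613%, 1.54% and 2.27%, and the receptor gene INSRR had none in any sample. Of the adaptors that pass on the signal, IRS4 had 36.9% and 64.6% in WT, 44.6% and 62.4% in 231K, and 8.53% and 53.1% in 232P, whereas IRS2 and SHC1 had none and IRS1 had peaks in 5 of 6 samples away from its start. STC1, an inhibitor of the IGFBP4 protease PAPPA, had 44.0% and 45.9% in WT, 39.0% and 59.3% in 231K, and 10.5% and 48.9% in 232P. HTRA1, a secreted protease that cleaves IGFBPs, had a mean of 4.43%. At IGF1, IRS4 and STC1 the lowest share was in 232P replicate 1, which had the fewest peaks of all lists. That sample also had the shortest intron 1 mark at IGFBP3, with 1509 bp.

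**Figure D5:**
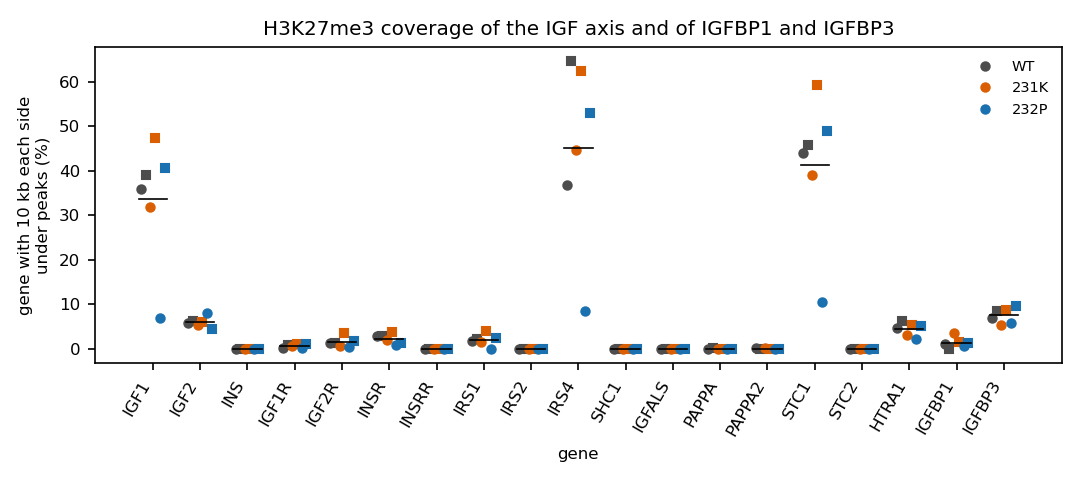
Share of the gene with 10 kb on each side under peaks (%) in the 6 samples for the 17 genes of the IGF axis and for IGFBP1 and IGFBP3. Circles are replicate 1, squares replicate 2, and the black line is the mean of the 6 samples. IRS4, STC1 and IGF1 have means of 45.0%, 41.3% and 33.7%, with the lowest point in 232P replicate 1, while IGFBP3 has a mean of 7.5%.

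The genes with the most similar pattern to IGFBP3, by the root mean square difference of the covered share over the 6 samples, were PDE4A (0.84 percentage points), OBI1 (1.19), ADAMTS8 (1.23), ZNF595 (1.28) and NR5A2 (1.31). PDE4A had 6.39% and 7.54% in WT, 5.84% and 8.49% in 231K, and 4.39% and 8.78% in 232P. Its groups overlapped. ADAMTS8 had 8.95% and 9.46% in WT, 5.82% and 8.84% in 231K, and 6.22% and 7.7% in 232P, and NR5A2 had 7.75% and 9.47% in WT, 4.83% and 7.39% in 231K, and 5.24% and 7.13% in 232P. In these 2 of the 5 genes all Tau-KO samples were below both WT samples, as in 7.97% of 6985 genes. The groups overlapped at the other 3, with 6.51% and 8.49% in WT and 9.2% in 231K replicate 2 at OBI1, and 8.38% and 8.62% in WT and 10.7% in 231K replicate 2 at ZNF595. Since the genes were picked for likeness over the same 6 values, a shared order of the samples is no further result.

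As a check of the labelled cell type, the marker genes HAND2, GATA3, TH and DBH of adrenergic neuroblastoma cells had no peak in any sample. Of 12 marker genes of other lineages, 10 had a peak in all 6 samples, where the share of all protein-coding genes was 22.1%. Their mean covered share ran from 4.48% at MYOD1 and 16.5% at PAX7 to 69.6% at MYF5 and 76.9% at PAX3. GATA4 and SIX3 had none. MAPT itself had 0 peaks in all 6 samples, so that these lists do not check the knock-out.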

How the data were processed

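H3K27me3 ChIP-seq peak lists of 6 samples were used, 1 list per sample, not pooled. The 6 input samples had no list here. Groups and replicates were taken from the labels. In both 232P lists the single peaks are named 231P, which is another Tau-KO line of the study. The GEO labels were used, and whether the values labelled 232P come from that line cannot be told from the lists. According to the methods, the authors used trimmomatic for trimming, BWA for alignment to HG38 and MACS (version 2) for peak calling. The methods name the broadPeak setting, whereas the lists have the 10 columns of narrowPeak. Threshold, fragment length and control are not given in the sources used here.

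The deposited fold enrichment is a ratio with 1 read added to summit and background. The deposited -log10 p-value and -log10 q-value belong to the summit, and the deposited score is derived from the q-value. All depend on depth, and the lists hold no normalization between samples. Summit reads and local background were recovered from fold enrichment and p-value with the Poisson distribution, with a whole number for 100% of peaks within 0.001 of the -log10 p-value. Relative depth is the background floor over the shortest peak length. Total reads are unknown, so no counting interval is given.

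Genes and starts were from GENCODE release 44, and an overlap of 1 bp counted. A peak at a start lay within 1 kb of any annotated start. Loss was a peak in both WT samples and in neither sample of a line, gain the reverse. Differences were compared by exact permutation tests over samples, two-sided. Python 3.11.15, numpy 2.4.6, pandas 2.3.3 and scipy 1.17.1 were used. On simulated data 100% of 19963 heights and of 500 covered lengths were recovered.

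The named genes were the family, 17 genes of the IGF axis (with values for those marked at a start in all samples and the 5 with the highest mean covered share), 10 genes with an IGFBP domain, cell type markers, and the 5 genes most like IGFBP3. Receptors, adaptors and examples outside these rules were picked with their values in view. The results for some of the neuroblastoma markers are not reported here. The members and lists were chosen with earlier results of these data known. Alternatives were 2 q-value thresholds, equal peak numbers, other windows and starts, joining, thinning, a replicate block and leaving out each replicate. The MANE start alone and the intron 1 mark of IGFBP3 alone were added after seeing the data.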

Additional observations from a re-analysis of the deposited data

How the results depend on the processing

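Of 154 values recomputed under the alternatives for IGFBP1, IGFBP3 and the counts of genes, 134 kept their direction or their count within 1.5 times, 9 counts moved and 11 differences changed sign, all at IGFBP3. The covered length of the 5 genes without a peak stayed at 0, which most alternatives could not change. No difference passed 0.05 before or under the alternatives, but none could. The smallest p that the exact permutation test can give is 0.0667 for 4 against 2 and 0.333 for 2 against 2. The smallest exact p over all alternatives was 0.2. At the stricter threshold (-log10 q-value of 5 or more), 0 genes had a peak in all 6 samples and 0 starts were gained in 231K, and no highest fold enrichment was left in every sample at IGFBP3, so that test was not run. The covered length at IGFBP3 then differed by -1027 bp between Tau-KO and WT (exact permutation test, p = 0.4), as replicate 1 of 231K and of 232P had no peak left there. It was -199.2 bp with an equal number of strongest peaks and -194.2 bp with peaks within 1 kb joined. Counting the intron 1 mark only, an alternative chosen after seeing the data, gave -250 bp in Tau-KO, -215 bp in 231K and -285 bp in 232P. The start gained in 231K at IGFBP1 was also not counted (0) with an equal number of strongest peaks and with 2.5 kb on each side of the starts. With 50 kb on each side, 2 genes had a peak in all samples, and the covered length at IGFBP3 took in the peaks of IGFBP1 and differed by 195 bp in Tau-KO, 295 bp in 231K and 95 bp in 232P. With 1 kb on each side of the first base of the gene record only, 0 genes had a peak at the start in both WT samples. Then 1 was gained in 231K, as before, and 1 in 232P. The share over all genes was not counted for this start. With the MANE start no count changed.

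Leaving out each replicate gave 1 to 2 genes with a peak in all samples, with 2 when WT replicate 2, the sample without a peak at IGFBP1, was left out, and 0 to 1 starts gained in 232P, with 1 at IGFBP1 when 232P replicate 2 was left out. The Tau-KO difference in covered length at IGFBP3 ranged from -337.5 to 118 bp, that of 231K from -695.5 to 265.5 bp, and that of 232P from -582.5 to 574.5 bp. These differences were above 0 without WT replicate 2, and without replicate 1 of the Tau-KO line concerned. At IGFBP1 the difference of 231K to WT ranged from 255 bp without 231K replicate 1 to 765 bp without 231K replicate 2, and that of Tau-KO from 151 to 446.5 bp. With a q-value under 0.05, the latter was 184 bp. The difference in highest fold enrichment ranged from -0.998 to 0.105, above 0 without WT replicate 1. Thinned to the shallowest library, it was -0.0811 (exact permutation test, p = 0.8).

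The replicate numbers are shared by the groups, and deviations from the group means had correlations of 0.707 to 0.751 across 6985 genes between groups, but the labels do not say what the number marks. Permutation within the number (replicate block) gave the same differences, with p = 0.778 for the covered length (-109.5 bp) and p = 0.667 for the highest fold enrichment (-0.446) at IGFBP3, and p = 0.444 at IGFBP1 (304.5 bp). With 9 arrangements for 4 against 2 and 4 for 2 against 2, the block could not pass 0.05 either, so no call could change. With 2 replicates, no test of 2 against 2 or of 4 against 2 can pass 0.05, and unlisted regions are known only to be under the threshold.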

Other observations

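Other human proteins carry an IGFBP domain without belonging to the family. Of 10 such genes, 3 had a peak at the start in all 6 samples and 7 had none anywhere in the gene with 10 kb on each side, where the shares of all protein-coding genes were 11.4% and 65.1%. ESM1, a proteoglycan secreted by endothelium, had 52.7% and 73.8% of its window under peaks in WT, 62.5% and 72.6% in 231K, and 20.0% and 54.9% in 232P. CCN2, a matrix protein induced by TGF-beta, had 49.8% and 68.4% in WT, 43.4% and 70.4% in 231K, and 14.4% and 53.4% in 232P. CCN3 had 43.6% and 63.8% in WT, 40.9% and 76.3% in 231K, and 11.3% and 54.8% in 232P. Its relatives CCN1, CCN4, CCN5 and CCN6 had no peak in any sample, nor had IGFBPL1, KAZALD1 and HTRA3. In the 3 marked genes the lowest share was in 232P replicate 1 and replicate 2 was higher than replicate 1 in each line.

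Of the 10 genes of the other lineage list with a peak at the start in both WT samples, 1 lost it in 231K and 0 in 232P, where 2.52% and 7.0% of 3300 such genes lost it. The former was MYOD1, a regulator of muscle, which kept a peak at the start in 1 of 2 samples of 232P, with 4.04% and 11.4% of its window under peaks in WT, 3.39% and 4.63% in 231K, and 1.34% and 2.12% in 232P.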
